A study of Mus musculus with 8 samples.

Results

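Interferon-stimulated genes are the genes that cells switch on when type I interferon reaches its receptor. Their list here held 41 genes, chosen by name for their known roles, with earlier results of these data known. It also holds the genes of the receptor's own chains, Ifnar1 and Ifnar2. Of the 41, 36 had a probe set annotated with that symbol alone, among 22180 genes measured, and 30 of the 36 were bright enough to be tested, among 15526 genes tested. They were measured in medulloblastomas, tumours of the cerebellum, from mice at postnatal day 15, with 4 tumours carrying Math1-Cre, SmoM2 and floxed Bcl2l1 alleles (genotype Math1-Cre/SmoM2/Bcl2l1 f/f, called Bcl2l1-deleted) and 4 control tumours carrying Math1-Cre and SmoM2 (genotype Math1-Cre/SmoM2). All 8 animals thus had Cre under the Math1 promoter and the activated Smoothened allele SmoM2, and none received any agent. Math1 drives Cre in granule neuron precursors, the cells these tumours grow from, so that vessel cells, microglia and other host cells of a tumour keep Bcl2l1, the gene of the survival protein BCL-xL. Each tumour was its own animal and its own array, and the number of arrays limits the precision.

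Type I interferons bind a receptor made of the chains IFNAR1 and IFNAR2. The receptor's kinases activate STAT2, which enters the nucleus with IRF9 and binds the interferon-stimulated response element in front of target genes. The targets sense, cut or sequester foreign nucleic acid, block translation or feed back on the signal, and many are also present at a basal level. In brain, microglia are known as strong responders. In a bulk tumour sample, fewer cells of a type and less RNA per cell cannot be told apart.

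The promoters of 4 of the 5 members that differed between the genotypes are shown first, to let a reader see which of the 4 carry that element. The other is Rtp4. Each runs 300 bases, from 250 before to 50 after the annotated start (RefSeq, build GRCm38.p6), 5′ to 3′ on the gene's own strand. Capitals mark the core of the element, searched as GAAANNGAAA or its reverse complement TTTCNNTTTC, with overlapping matches counted.
Ifih1, chr2:62646206-62646505, minus strand: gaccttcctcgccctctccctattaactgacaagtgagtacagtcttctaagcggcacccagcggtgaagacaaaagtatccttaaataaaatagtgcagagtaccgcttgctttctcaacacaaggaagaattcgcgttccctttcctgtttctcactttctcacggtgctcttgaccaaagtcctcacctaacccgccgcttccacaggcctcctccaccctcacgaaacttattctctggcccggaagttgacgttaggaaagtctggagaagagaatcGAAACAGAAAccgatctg
Eif2ak2, chr17:78882523-78882822, minus strand: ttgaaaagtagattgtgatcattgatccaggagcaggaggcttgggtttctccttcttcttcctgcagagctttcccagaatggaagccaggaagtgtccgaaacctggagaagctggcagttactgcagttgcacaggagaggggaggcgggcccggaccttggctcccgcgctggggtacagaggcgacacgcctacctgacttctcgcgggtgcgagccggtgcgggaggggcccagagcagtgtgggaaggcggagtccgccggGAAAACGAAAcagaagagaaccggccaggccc
Ifnar2, chr16:91372533-91372832, plus strand: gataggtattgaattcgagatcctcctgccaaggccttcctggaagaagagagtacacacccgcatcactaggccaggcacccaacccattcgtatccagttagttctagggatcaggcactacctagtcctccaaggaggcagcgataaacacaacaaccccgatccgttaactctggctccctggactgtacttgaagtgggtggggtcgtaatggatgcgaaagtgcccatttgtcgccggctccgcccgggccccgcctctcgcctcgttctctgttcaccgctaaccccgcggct
Trim25, chr11:88999153-88999452, plus strand: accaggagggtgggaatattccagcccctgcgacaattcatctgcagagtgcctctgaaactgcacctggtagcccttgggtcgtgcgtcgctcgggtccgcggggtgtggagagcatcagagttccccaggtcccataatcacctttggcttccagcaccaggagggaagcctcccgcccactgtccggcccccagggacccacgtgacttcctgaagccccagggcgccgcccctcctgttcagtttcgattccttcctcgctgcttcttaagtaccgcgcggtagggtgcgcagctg

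Ifih1 and Eif2ak2 each held 1 core, both after the annotated start, and no match to these letters lay in the windows of Ifnar2 and Trim25. Over the list, 31 members had a promoter in the RefSeq table and 14 of them (45.2%) held the core in a promoter, against 1079 of all 27025 genes there (3.99%). Of the tested members with a promoter, 9 of 24 (37.5%) held it. A match describes these letters and is not a measured binding site. Windows around the cores of the other 7 tested members that hold one are given for comparison, with 10 bases on each side.
Ifit1, chr19:34640775-34640823, plus strand: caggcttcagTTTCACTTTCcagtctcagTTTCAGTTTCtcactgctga
Ifit3, chr19:34583363-34583426, plus strand: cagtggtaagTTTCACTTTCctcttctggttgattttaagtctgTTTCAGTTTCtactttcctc
Ddx58, chr4:40239804-40239833, minus strand: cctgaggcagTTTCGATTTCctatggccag
Stat2, chr10:128270266-128270295, plus strand: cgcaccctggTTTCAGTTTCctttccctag
Oas3, chr5:120777715-120777744, minus strand: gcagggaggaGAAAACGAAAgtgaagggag
Rsad2, chr12:26456553-26456582, minus strand: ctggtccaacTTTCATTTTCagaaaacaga
Bst2, chr8:71537577-71537612, minus strand: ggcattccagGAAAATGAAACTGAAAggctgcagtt

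Some facts of the arrays precede the results. Array medians over all probe sets lay between 4.77 and 4.87 on the Bcl2l1-deleted arrays and between 4.90 and 5.17 on the control arrays (log2 RMA expression, the unit of every level below). Control replicate 2 stood apart, with correlations of at most 0.925 with any other array. The chemosensory receptor genes (Olfr and Vmn), mostly silent in brain and used here as a background level, had medians of 2.79 to 2.92 on Bcl2l1-deleted arrays and 2.94 to 3.60 on control arrays. The interquartile range of all genes was 3.59 to 3.66 on Bcl2l1-deleted arrays and 2.40 to 3.50 on control arrays. Both measures separated the groups completely (exact permutation test, two-sided, p = 0.0286 each, the smallest that 4 against 4 allows). Their part in the results was not tested beyond the alternatives given in the closing section. The median tested gene was 0.17 higher in Bcl2l1-deleted tumours, so a relative change below is the fitted log2 difference (Bcl2l1-deleted minus control) less this shift. The deleted gene had the labelled direction on every array, with Bcl2l1 at 5.46, 5.46, 5.69 and 5.32 in Bcl2l1-deleted tumours, against 6.88, 6.57, 6.93 and 6.98 in controls (fitted change -1.36 ± 0.16 SE, limma, adjusted p = 0.00509). The 12 measured tumour and granule neuron progenitor markers, among them Atoh1 and Gli1, averaged 9.84 to 10.03 on Bcl2l1-deleted arrays and 9.44 to 10.09 on control arrays, and none of them passed.

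The comparison of the genotypes asks whether deleting Bcl2l1 in the tumour lineage changes the interferon response of the tumour. Of the 30 tested members, 5 rose in Bcl2l1-deleted tumours: the receptor chain Ifnar2, the RNA sensor Ifih1, the RNA-activated kinase gene Eif2ak2, the ubiquitin ligase gene Trim25 and the chaperone gene Rtp4. None fell, and 25 did not pass (limma over all 15526 genes, two-sided, Benjamini-Hochberg adjusted p under 0.05). The 5 are 16.7% of the tested members, where 4.93% of all tested genes rose and 1.60% fell. At an unadjusted p under 0.05, 11 of 30 members (36.7%) passed, close to the 30.5% of all tested genes. In 9 members (30%) every Bcl2l1-deleted array lay above every control array, against 19.0% of all tested genes, and in none every one lay below, against 4.46%. The median relative change of the tested members was 0.20, with 21 above and 9 below the median gene, and the quartiles of all tested genes were -0.27 and 0.25.

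The 5 calls depended on the arrays used. Without control replicate 2, which stood apart, 9 members rose, the 5 and Ifit2, Irf1, Parp9 and Zbp1, where 8.95% of all tested genes rose. Without control replicates 1, 3 and 4 in turn, 5, 2 and 1 members rose, where 10.4%, 2.30% and 0.76% of all tested genes did. Leaving out any of Bcl2l1-deleted replicates 1 to 4 left 0 members past the threshold (limma), with 9, 9, 7 and 11 members at an unadjusted p under 0.05 and with 20, 47, 453 and 223 of all genes called. With the chemosensory receptor median as a covariate 2 members rose, Eif2ak2 and Irf1, and with Xist as a covariate 0 rose (7 at an unadjusted p under 0.05).

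**Figure D1:**
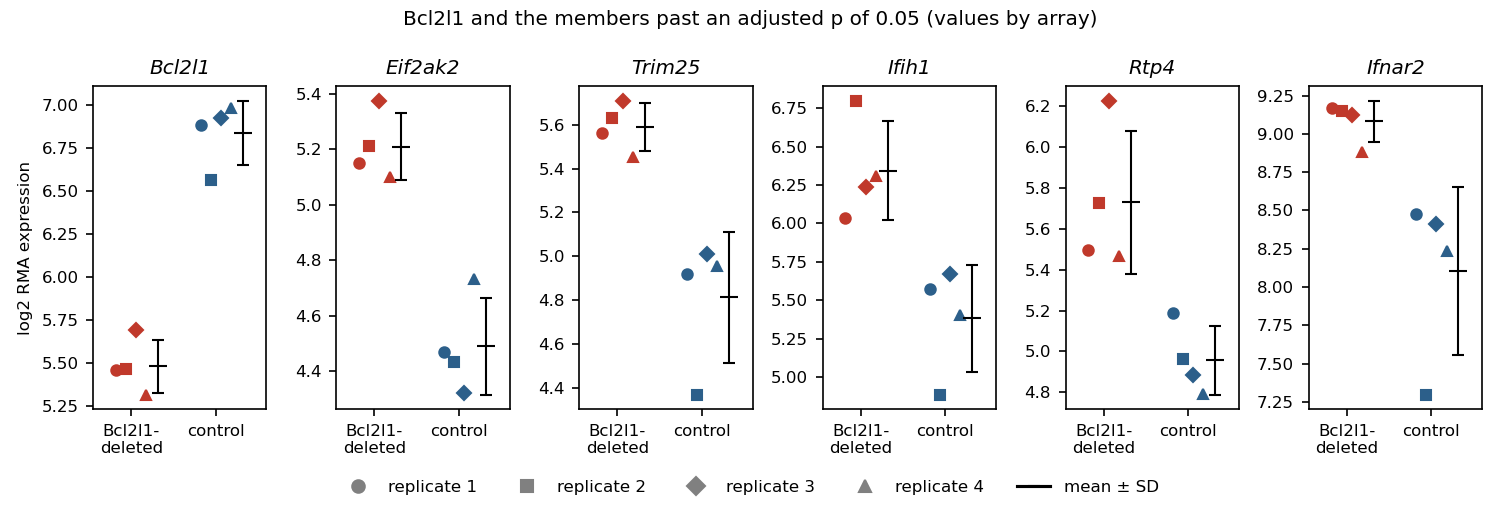
Log2 RMA expression (y axis, a separate scale in each panel that does not start at 0) of Bcl2l1 and the 5 members that rose, with Bcl2l1-deleted arrays on the left and control arrays on the right, 1 symbol per replicate and the mean ± SD of 4 arrays beside them. No Bcl2l1-deleted array overlaps a control array in any panel, and control replicate 2 is the lowest array for Trim25, Ifih1 and Ifnar2.

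The receptor chains came first in the pathway and differed in their values. Ifnar2, the chain that binds interferon more tightly, stood at 9.17, 9.15, 9.12 and 8.88 in Bcl2l1-deleted tumours, against 8.47, 7.30, 8.41 and 8.24 in controls. The groups did not overlap, and the lowest control value was that of replicate 2. Its fitted change was 0.98 ± 0.24 (SE), a relative change of 0.80, with an adjusted p of 0.0427, and 0.0116 without control replicate 2, where the relative change was 0.62. Ifnar1, the partner chain, stood at 8.93, 9.07, 8.92 and 9.08 in Bcl2l1-deleted tumours, against 8.82, 7.88, 8.77 and 8.95 in controls. Those groups overlapped at their edges, and Ifnar1 did not pass (relative change 0.22 ± 0.22 SE, adjusted p = 0.248). Whether both chains differ from each other in their response was not tested.

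In the order of the RefSeq table (GRCm38.p6), Ifnar2, Il10rb, Ifnar1 and Ifngr2 follow one another on chromosome 16, as genes of 4 receptor chains. Il10rb, the shared chain of the receptors for interleukin 10 and interferon lambda, stood at 7.28, 6.88, 6.99 and 6.97 in Bcl2l1-deleted tumours, against 6.07, 5.38, 5.85 and 5.70 in controls. The groups were clearly apart, with every Bcl2l1-deleted array above every control array. Its fitted change was 1.28 ± 0.18 (SE, relative change 1.11, adjusted p = 0.0114), and it kept its call in 19 of 20 alternatives. Ifngr2, a chain of the interferon gamma receptor, did not pass (relative change 0.03, adjusted p = 0.427). Its partner Ifngr1, encoded elsewhere, stood at 8.42, 8.38, 8.27 and 7.92 in Bcl2l1-deleted tumours, against 7.90, 6.74, 7.37 and 7.17 in controls. Only Bcl2l1-deleted replicate 4 and control replicate 1 came close, and Ifngr1 rose (relative change 0.78, adjusted p = 0.0407), with its call kept in 10 of 20 alternatives (highest adjusted p = 0.148).

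**Figure D2:**
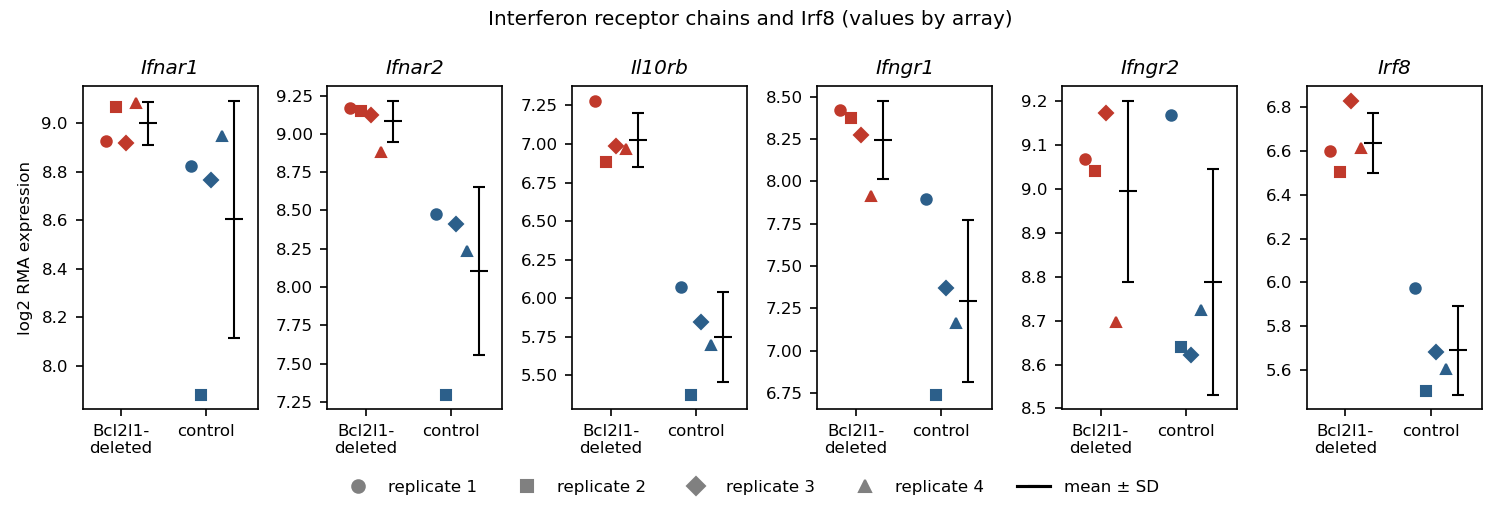
Log2 RMA expression (y axis, a separate scale in each panel that does not start at 0) of 5 interferon receptor chains and of Irf8, Bcl2l1-deleted arrays on the left and control arrays on the right, with the mean ± SD of 4 arrays. Ifnar2, Il10rb, Ifngr1 and Irf8 separate the groups, whereas Ifnar1 and Ifngr2 overlap.

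None of the 4 transcription factors in the list passed (limma, 1 at an unadjusted p under 0.05). Irf1, which acts downstream of interferon gamma and also without interferon, stood at 5.38, 5.29, 5.29 and 5.51 in Bcl2l1-deleted tumours, against 4.89, 5.41, 4.82 and 4.45 in controls. Control replicate 2 was the array that overlapped, and without it Irf1 rose. Irf9, the DNA-binding partner of STAT2, stood at 7.12, 7.25, 7.57 and 7.05 in Bcl2l1-deleted tumours, against 7.19, 6.43, 6.94 and 6.87 in controls, with the highest value on Bcl2l1-deleted replicate 3. Relative changes were 0.31 ± 0.20 (SE) for Irf1, 0.22 ± 0.19 for Irf9, 0.18 ± 0.28 for Stat2 and 0.04 ± 0.21 for Irf7, the amplifier of the response, with adjusted p-values of 0.136, 0.193, 0.398 and 0.487.

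Among the sensors of foreign nucleic acid, 1 of 4 rose. Ifih1 encodes MDA5, which binds long double-stranded RNA, and its core element is printed above. It stood at 6.03, 6.80, 6.24 and 6.31 in Bcl2l1-deleted tumours, against 5.57, 4.88, 5.67 and 5.40 in controls, a fitted change of 0.96 ± 0.22 (SE, relative change 0.79, adjusted p = 0.0333). Its highest value lay on replicate 2 of the Bcl2l1-deleted group, not on replicate 3. Ddx58, the gene of the sensor RIG-I, stood at 5.94, 5.88, 6.68 and 5.88 in Bcl2l1-deleted tumours, against 5.73, 5.40, 5.75 and 5.49 in controls. Its groups did not overlap, yet it did not pass (relative change 0.33 ± 0.20 SE, adjusted p = 0.126). Dhx58, whose protein LGP2 modulates both, and Zbp1, a sensor of Z-form nucleic acid, had relative changes of 0.11 and 0.27 (adjusted p = 0.335 and 0.290).

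Usp18, the protease that removes ISG15 from proteins and dampens the receptor, had uneven values. It stood at 6.08, 6.07, 7.74 and 5.92 in Bcl2l1-deleted tumours, against 6.15, 5.38, 5.66 and 5.23 in controls. A single array, Bcl2l1-deleted replicate 3, lay far above the other 7, and the remaining arrays overlapped (relative change 0.68 ± 0.38 SE, adjusted p = 0.156). Isg15 itself, the ubiquitin-like modifier, was too dim to be tested, at 4.19 to 4.41 in Bcl2l1-deleted tumours and 3.89 to 4.75 in controls.

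The IFIT genes encode proteins that bind viral RNA ends, and none of the 3 tested passed (limma, 1 at an unadjusted p under 0.05). Ifit2 stood at 6.75, 7.04, 6.92 and 7.03 in Bcl2l1-deleted tumours, against 6.40, 5.39, 6.63 and 6.52 in controls. Its groups did not overlap (relative change 0.53 ± 0.25 SE, adjusted p = 0.0998, and 0.0467 without control replicate 2). Ifit1 stood at 5.41, 5.53, 6.21 and 5.10 in Bcl2l1-deleted tumours, against 5.12, 4.69, 5.58 and 4.97 in controls, with overlap (relative change 0.30, adjusted p = 0.230). Ifit3 had a relative change of -0.39 ± 0.22 (SE, adjusted p = 0.517) and was highest on control replicate 2, at 6.57.

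In the 2-5A synthetase family, whose enzymes make the signal for RNA decay by RNase L, none of the 3 tested members passed (limma, 0 at an unadjusted p under 0.05). Oasl2, a relative with ubiquitin-like repeats, stood at 5.99, 5.93, 7.23 and 6.003 in Bcl2l1-deleted tumours, against 5.97, 5.21, 5.94 and 5.80 in controls. Apart from Bcl2l1-deleted replicate 3 and control replicate 2, its values lay within a narrow band shared by the groups (relative change 0.39 ± 0.30 SE, adjusted p = 0.219). Oas3 stood at 4.62, 4.86, 4.28 and 5.04 in Bcl2l1-deleted tumours, against 4.37, 5.17, 4.48 and 4.92 in controls, and Oasl1 had a relative change of -0.16. Oas2 was too dim for the test, at 3.53 to 4.74 in Bcl2l1-deleted tumours and 3.24 to 4.98 in controls. All 3 measured GTPase genes were likewise too dim. The antiviral Mx1 lay at 3.90 to 4.08 in Bcl2l1-deleted tumours and 3.82 to 4.08 in controls, Mx2 at 3.52 to 4.45 on Bcl2l1-deleted arrays and 3.12 to 4.02 on control arrays, and Gbp3 at 4.08 to 4.34 on Bcl2l1-deleted arrays and 3.77 to 4.39 on control arrays.

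Of the enzymes that act on RNA, nucleotides and translation, 1 of 5 rose. Eif2ak2 encodes the kinase PKR, which stops translation when it binds double-stranded RNA, and its core element is printed above. It stood at 5.15, 5.21, 5.38 and 5.10 in Bcl2l1-deleted tumours, against 4.47, 4.43, 4.32 and 4.73 in controls. The groups did not overlap, and control replicate 2 lay among the other controls. Its fitted change was 0.72 ± 0.15 (SE, relative change 0.55, adjusted p = 0.026), the smallest p of the list. Rsad2, the gene of viperin, which makes a chain-terminating nucleotide, stood at 5.58, 5.42, 5.86 and 5.59 in Bcl2l1-deleted tumours, against 5.49, 5.46, 4.89 and 5.42 in controls (relative change 0.13, adjusted p = 0.268). The nucleotide kinase gene Cmpk2 and the RNA editing gene Adar had relative changes of -0.21 and -0.22, and the nucleotide hydrolase gene Samhd1 one of 0.11, with adjusted p-values of 0.902, 0.882 and 0.318.

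Trim25, the ubiquitin ligase known for its action on RIG-I, stood at 5.56, 5.63, 5.71 and 5.45 in Bcl2l1-deleted tumours, against 4.92, 4.37, 5.01 and 4.96 in controls. The groups did not overlap (fitted change 0.77 ± 0.17 SE, relative change 0.60, adjusted p = 0.0324), and without control replicate 2 the relative change was 0.54 (adjusted p = 0.0119). Sp100, a nuclear body protein, stood at 5.44, 5.13, 5.09 and 5.26 in Bcl2l1-deleted tumours, against 5.64, 7.36, 5.38 and 5.44 in controls. Control replicate 2 was by far its highest array (relative change -0.90 ± 0.38 SE, adjusted p = 0.214, and -0.34 without that array). Sp100 had 4 probe sets, and they disagreed in sign, with fitted changes of 0.54, -0.71, -1.23 and, for the brightest, -0.72. Trim30a was too dim to be tested, at 2.95 to 3.81 in Bcl2l1-deleted tumours and 2.88 to 3.88 in controls.

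Parp9, which works with the ligase DTX3L, stood at 5.86, 5.78, 5.95 and 5.98 in Bcl2l1-deleted tumours, against 5.52, 5.74, 5.26 and 5.16 in controls. The groups touched without overlapping, at Bcl2l1-deleted replicate 2 and control replicate 2 (relative change 0.30 ± 0.16 SE, adjusted p = 0.0907). Parp14 stood at 5.26, 5.30, 6.07 and 5.43 in Bcl2l1-deleted tumours, against 5.29, 5.66, 5.26 and 5.56 in controls, and overlapped (relative change -0.10, adjusted p = 0.823).

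Of the membrane proteins and other effectors, 1 of 4 tested rose. Rtp4, a chaperone of receptors on the way to the cell surface, stood at 5.50, 5.72, 6.23 and 5.47 in Bcl2l1-deleted tumours, against 5.19, 4.96, 4.89 and 4.79 in controls (fitted change 0.77 ± 0.19 SE, relative change 0.60, adjusted p = 0.0415). Its groups did not overlap, and Bcl2l1-deleted replicate 3 was highest. Ifi35 stood at 5.71, 5.84, 5.92 and 5.69 in Bcl2l1-deleted tumours, against 5.59, 5.44, 5.50 and 5.21 in controls, without overlap (relative change 0.18 ± 0.15 SE, adjusted p = 0.134). A second, dimmer probe set of Ifi35 had a fitted change of -0.22, opposite to the 0.35 of the brighter one. Bst2, the tetherin gene, had a relative change of -0.34, and Xaf1, a pro-apoptotic factor, one of -0.01 (adjusted p = 0.676 and 0.770). Oas1a, Gbp2, Dtx3l, Ifi27l2a and Ifi44 had no probe set of their own symbol alone and were not analysed here.

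**Figure D3:**
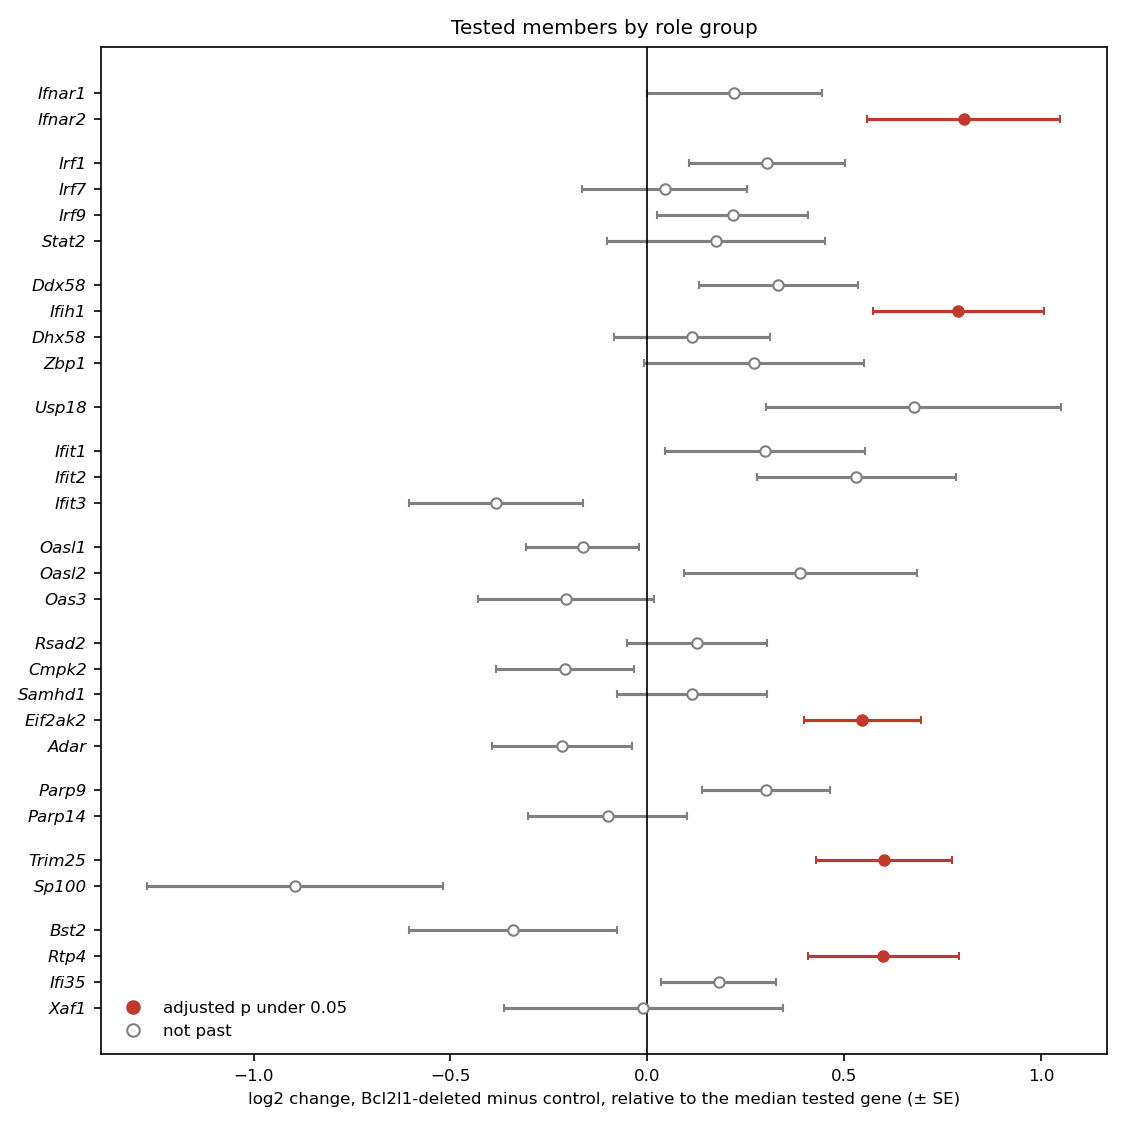
Relative log2 change (x axis, Bcl2l1-deleted minus control less the median tested gene, ± SE of the fit) of the 30 tested members, with gaps between role groups. The 5 filled points are the members that rose, and 9 points lie left of 0.

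One array of the Bcl2l1-deleted group carried high values of many members at once. Replicate 3 had the highest level of all 8 arrays for 16 of the 30 tested members (53.3%), where it was highest for 12.6% of all tested genes. The other Bcl2l1-deleted replicates 1, 2 and 4 were highest for 1, 2 and 3 members. In 9 members replicate 3 exceeded the median of the other 3 Bcl2l1-deleted arrays by over 0.5, which are 30% of the members and compare with 5.55% of all tested genes. These were Usp18 (by 1.67), Oasl2 (1.24), Xaf1 (0.96), Ifit1 (0.80), Ddx58 (0.79), Parp14 (0.77), Rtp4 (0.73), Dhx58 (0.62) and Zbp1 (0.55). The receptor chains and Ifih1 were not among them, with Ifnar2 at -0.03, Ifnar1 at -0.15 and Ifih1 at -0.07. Oas3 ran the other way, at -0.57. Without replicate 3 the median relative change of the members was 0.11, and 19 of 30 lay above the median gene.

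Of 39 other tested interferon-stimulated genes listed as a pathway, 19 were highest of the Bcl2l1-deleted group on replicate 3, where 26.1% of all tested genes were. The 20 measured interferon genes averaged 4.08 on that array and 3.99 to 4.14 on the other Bcl2l1-deleted arrays. Microglia markers averaged 7.73 there and 7.51 to 7.68 on the others, and astrocyte markers 9.56 there and 9.08 to 9.29 on the others. Their part in the high values of replicate 3 was not tested.

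**Figure D4:**
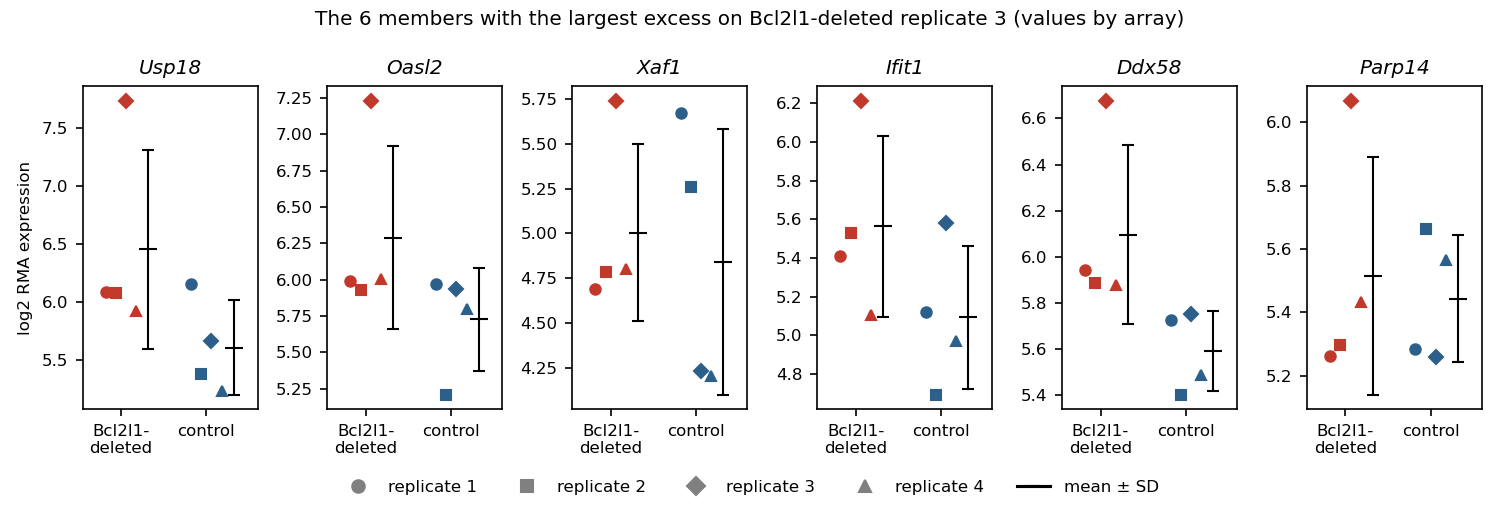
Log2 RMA expression (y axis, a separate scale in each panel that does not start at 0) of the 6 members with the largest excess on Bcl2l1-deleted replicate 3 (diamond), Bcl2l1-deleted arrays on the left and control arrays on the right, with the mean ± SD of 4 arrays. Usp18 reaches 7.74 and Oasl2 7.23 on that array, above all other arrays.

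**Figure D5:**
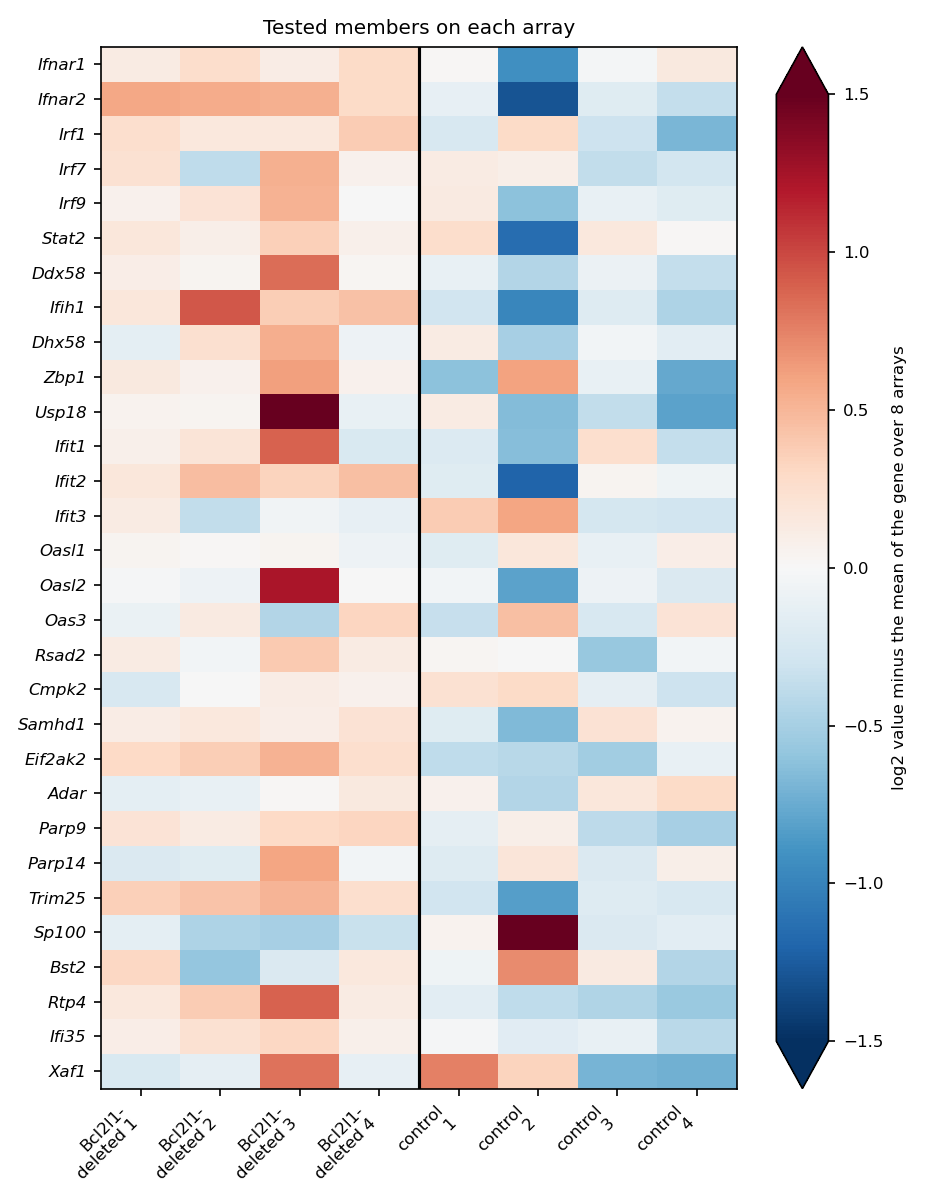
Level of each tested member on each array as the log2 value minus the mean of the gene over the 8 arrays (colour, limited to 1.5 either way), Bcl2l1-deleted arrays left of the line and control arrays right of it. The column of Bcl2l1-deleted replicate 3 is highest for 16 of 30 members, and that of control replicate 2 lowest for 13.

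Control replicate 2 was the lowest array for 13 members (43.3%) and the highest for 6 (20%), while it was lowest for 54.6% and highest for 14.7% of all tested genes. It was thus lowest no more often among the members than among all tested genes. Stat2, a member with its low value on that array, stood at 6.94, 6.85, 7.12 and 6.85 in Bcl2l1-deleted tumours, against 7.04, 5.63, 6.93 and 6.78 in controls.

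No interferon gene was called higher or lower. Of 21 listed, 20 were measured, 11 of these lay below the dim limit and none of the 9 tested passed (limma, with 3 at an unadjusted p under 0.05, all 3 lower), with relative changes of -1.03 to -0.09. The 20 measured averaged 4.87 on control replicate 2 and 4.12 to 4.40 on the other controls. Ifna14, the gene at -1.03, stood at 7.12 on that array and at 5.29 to 5.58 on the other controls. Interferon beta (Ifnb1) lay at 2.85 to 3.70 in Bcl2l1-deleted tumours and 3.18 to 4.35 in controls, and interferon gamma (Ifng) at 3.54 to 3.99 on Bcl2l1-deleted arrays and 3.35 to 4.15 on control arrays, all below the limit of 4.38. Ifna4, with the smallest p of these genes, stood at 5.24, 5.87, 6.18 and 6.06 in Bcl2l1-deleted tumours, against 6.43, 6.47, 6.12 and 6.50 in controls (relative change -0.71, adjusted p = 0.116). The alpha interferon genes are near-identical copies, so their probe sets may share signal.

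Upstream of interferon, 9 of 16 tested genes of the sensing pathways rose (56.2%) and none fell, where 4.93% of all tested genes rose and 1.60% fell. Irf8, a transcription factor of the myeloid lineage, stood at 6.60, 6.50, 6.83 and 6.61 in Bcl2l1-deleted tumours, against 5.97, 5.50, 5.68 and 5.61 in controls (relative change 0.77, adjusted p = 0.014). Unc93b1, which carries the endosomal Toll-like receptors to their compartment, had a relative change of 1.09 (adjusted p = 0.0214). The RNA receptor genes Tlr8 and Tlr7 had relative changes of 1.09 and 1.34 (adjusted p = 0.0216 and 0.0245). Most of these 9 genes are known from microglia and macrophages. Of 18 tested microglia markers 9 were higher (50%) and none lower. They averaged 7.51 to 7.73 on Bcl2l1-deleted arrays and 6.33 to 7.21 on control arrays. None of the 18 microglia markers lay below the dim limit. Border macrophage markers were higher in 3 of 8, averaging 6.07 to 6.54 on Bcl2l1-deleted arrays and 5.32 to 5.86 on control arrays, and endothelial markers in 4 of 9, averaging 6.69 to 6.84 on Bcl2l1-deleted arrays and 5.89 to 6.34 on control arrays over 10 measured. Of 13 measured markers of infiltrating leukocytes 10 were below the dim limit and none of the 3 tested passed, and the list averaged 3.66 to 3.93 on Bcl2l1-deleted arrays and 3.82 to 4.39 on control arrays. Astrocyte markers were higher in 2 of 7, averaging 9.08 to 9.56 on Bcl2l1-deleted arrays and 8.23 to 9.22 on control arrays. Choroid plexus markers were lower in 2 of 6, averaging 5.61 to 6.05 on Bcl2l1-deleted arrays and 6.93 to 7.37 on control arrays. Of these 2, Ttr had by far the larger change, at 5.70 to 6.85 in Bcl2l1-deleted tumours and 10.95 to 11.48 in controls. Folr1 had a relative change of -1.14, and the 4 that did not pass had -0.84 to -0.375. The part of these cell types in the members' changes was not tested.

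Outside the list, 2 of 11 tested receptor chains, kinases and feedback genes rose (18.2%), Il10rb and Ifngr1. Of 39 further interferon-stimulated genes 10 rose (25.6%) with none lower, where 4.93% of all tested genes rose. Slfn2, a schlafen gene of leukocytes, stood at 5.56, 5.61, 5.86 and 5.31 in Bcl2l1-deleted tumours, against 4.63, 4.65, 4.16 and 4.59 in controls (relative change 0.91, adjusted p = 0.014). The schlafen genes Slfn1 and Slfn8 ran the other way without passing (limma, relative changes -0.73 and -0.77, adjusted p = 0.0805 and 0.0883). Slfn5 did not pass either (relative change 0.49, adjusted p = 0.0696). Igtp, an immunity-related GTPase known from the interferon gamma response, had a relative change of 0.93 (adjusted p = 0.0158), and its relative Irgm1 one of 0.64 (adjusted p = 0.0267). Nmi, whose protein pairs with that of Ifi35, had a relative change of 0.88 (adjusted p = 0.0211). In all, 21 of 75 tested pathway genes outside the list rose (28.0%) and none fell, where 4.93% of all tested genes rose and 1.60% fell. Their median relative change was 0.18, pooled over lists that differed. It was -0.715 for interferon genes, 0.148 for receptor chains, kinases and feedback genes, 0.582 for sensing genes and 0.246 for further interferon-stimulated genes. The pathway genes that rose numbered 0, 1, 7 and 5 when each Bcl2l1-deleted array (replicates 1 to 4) was left out. Of all tested genes, 0.103%, 0.238%, 1.65% and 1.19% rose then. They numbered 22, 23, 15 and 4 when each control array was left out, where 10.4%, 8.95%, 2.30% and 0.76% of all tested genes rose.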

How the data were processed

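RNA from each of the 8 tumours was prepared for whole-transcript Affymetrix arrays. The deposited values are log2 expression values that the authors made by RMA in Partek, per the labels. Its version and options, and the array's build, are not given in the sources used. RMA narrows differences near background. Groups follow the titles and genotypes. A field on Bcl2l1 status reads the same for every sample and was not used.

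Of 41345 probe sets, 23521 had 1 symbol in the platform annotation, 1814 several and 16010 none. The brightest probe set stood for a gene. Genes whose mean level was 4.38 or less, the lowest 30%, were left out as dim. limma 3.58.1 in R 4.3.3 (lmFit, eBayes) was fitted over all tested genes, with Benjamini-Hochberg adjustment, and was tested on simulated data. SEs and p-values belong to the fitted change, tested against 0, also beside a relative change. P-values rest on the spread between these animals, which eBayes moderates toward that of all tested genes. The members, role groups, pathway genes and marker lists were chosen with earlier results of these data known. Values on each array were to be given for members past the threshold and the 2 smallest p of each role group, and of other pathway lists at most 4 genes past it or the 1 with the smallest p. Older symbols were matched through a RefSeq table (GRCm38.p6), which also gave promoters and gene order. Same-numbered replicates did not deviate together (correlations -0.135 to 0.0526). Alternatives covered the dim filter, prior, scaling, background, array weights, a replicate block, Xist, probe sets and each array left out.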

Additional observations from a re-analysis of the deposited data

Results flagged for a closer look

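Each measured member was examined within each group of 4 arrays for 1 array far from the other 3, by the ratio of the gap to the range. Of 72 such groups 10 passed Dixon's critical value for 4 arrays, which chance passes in about 1 group in 20 where groups are independent. Members share arrays, and the share over all tested genes was not counted, so no excess is read from the 10. Control replicate 2 was lowest for 54.6% of all tested genes. On Bcl2l1-deleted replicate 3, 5 members stood apart as high: Usp18 at 7.74 (5.92 to 6.08 on the others of its group), Oasl2 at 7.23 (5.93 to 6.003), Ddx58 at 6.68 (5.88 to 5.94), Zbp1 at 5.86 (5.30 to 5.39) and Xaf1 at 5.74 (4.69 to 4.80). On control replicate 2, Sp100 stood high at 7.36 (5.38 to 5.64 on the other controls), and Ifnar1 and Trim25 stood low at 7.88 and 4.37 (8.77 to 8.95 and 4.92 to 5.01). Ifnar2 was low on Bcl2l1-deleted replicate 4, at 8.88 (9.12 to 9.17), and Rsad2 on control replicate 3, at 4.89 (5.42 to 5.49).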

How the results depend on the processing

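Of 20 alternatives, 6 left no member past the threshold, and no member changed sign with a call. Bcl2l1 kept its call in all 20. Of the 5 members, Ifih1 kept its call in 12 of 20, Eif2ak2 in 11 of 19, Trim25 in 11 of 19, Ifnar2 in 10 of 20 and Rtp4 in 8 of 19 (highest adjusted p = 0.107, 0.0954, 0.106, 0.131 and 0.131). The members that rose numbered 3 with no dim filter, 2 with it at the median, 3 with arrays centred on the genes tested, 2 with the chemosensory receptor median as a covariate (Eif2ak2 and Irf1), 8 with array weights, 0 with the replicate block (11 at an unadjusted p under 0.05) and 0 with Xist as a covariate (7). Pathway genes outside the list that rose numbered 14 and 13 under those filters, 12 when centred on the genes tested, 7 with the receptor covariate and 4 with Xist. Of all tested genes 1.75%, 5.84%, 2.51%, 1.76% and 0.953% rose in these settings in turn. With array weights 29 pathway genes and 15.7% of all tested genes rose, and with the replicate block 16 and 2.31%. Of the pathway genes 1 fell with no filter and 1 with array weights, where 0.717% and 6.78% of all tested genes fell. All genes called were 548 with no filter, 3494 with array weights, 508 with the replicate block and 200 with Xist. Centring on all probe sets gave 1337 higher and 171 lower, centring on the genes tested 390 and 699, and the receptor covariate 273 and 404, against 765 and 248. With 1 array left out, 0 to 9 members, 0 to 23 pathway genes and 20 to 2100 of all genes were called, the members and pathway genes upward, and 0 to 1 pathway genes fell. The labels give replicate numbers and do not say whether same-numbered animals belong together. The cause of these changes was not tested. The median change of the members stayed within 0.11 to 0.28. Signal close to background limits Isg15, Oas2, Mx1, Mx2, Gbp3 and Trim30a.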

Other observations

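Some interferon-inducible GTPase genes outside the list are described here, chosen after their values were seen. Irgm2 stood at 6.21, 5.57, 6.30 and 5.07 in Bcl2l1-deleted tumours, against 4.75, 4.20, 4.74 and 4.46 in controls (relative change 1.08, limma, adjusted p = 0.0284). Gbp7, a guanylate-binding protein gene, stood at 5.64, 5.71, 5.87 and 5.90 in Bcl2l1-deleted tumours, against 5.09, 4.93, 5.39 and 4.81 in controls (relative change 0.55, adjusted p = 0.0333). Igtp and Irgm1 also rose but did not pass with arrays centred on the genes tested (adjusted p = 0.0646 and 0.0894). Tgtp1, Tgtp2 and Ifi47 were listed but not analysed here. Gbp10 did not pass (relative change 0.11, adjusted p = 0.290), and Gbp4, Gbp5, Gbp6, Gbp8 and Gbp9 were too dim to be tested.

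Of the further interferon-stimulated genes, Cxcl10, a chemokine that draws T cells, was highest on Bcl2l1-deleted replicate 3. It stood at 6.715, 5.70, 7.22 and 5.998 in Bcl2l1-deleted tumours, against 5.30, 4.77, 5.61 and 5.18 in controls.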
